A study of Mus musculus with 4 samples.

Results

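Mitochondrial ribosomal proteins were followed in mouse MLL-AF9 leukemic cells labelled Ezh2 KO and WT. The members are the probe sets whose single gene symbol in the array's annotation begins with Mrps or Mrpl followed by a digit. This name rule found 156 of the 34945 probe sets with 1 symbol, and they stand for 76 of 18193 genes, 29 named for the small subunit and 47 for the large one. Of the 156 probe sets, 151 passed the filter on low values given below, as did at least 1 for each of the 76 genes. The mitochondrial ribosome translates the few messages of the mitochondrial genome, all of which encode subunits of the respiratory chain and ATP synthase. Its proteins are made from nuclear genes and imported, so that building it needs a supply of nuclear transcripts in step with the ribosomal RNAs made inside the organelle. Leukemic cells of the myeloid lineage are known to depend on mitochondrial translation, and drugs against it have been tried on them.

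The samples were 2 of Ezh2 KO and 2 of wild-type (WT) leukemic cells. All 4 carried the fusion oncogene MLL-AF9 and were purified out of bone marrow in C57BL/6 recipients. Ezh2 is the histone methyltransferase of the Polycomb complex PRC2, which marks silenced genes. The labels conflict on the Ezh2 KO samples, since the genotype entry names Ezh2 and the protocol entry gives marrow cells of genotype Ink4a-/-Arf-/-. The labels used here say nothing of the driver of the deletion, of the number of leukemias or of the age of the mice. Nor do they say whether the 2 samples of each kind were taken from different animals, so the p-values reflect the scatter among these arrays, possibly technical, and their small number limits the precision. Each sample was hybridised to 1 array, and the values are probe set intensities scaled, as the values show, to a trimmed mean of 500 on each array. Changes are given as Ezh2 KO minus WT in log2(intensity + 16), with an adjusted p from limma over all 13916 genes whose mean intensity passed the filter, 19.96, and a threshold of 0.05.

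The single named Ezh2 probe set had 4989 and 4991 intensity units in Ezh2 KO cells, against 5216 and 5315 in WT cells (log2 change -0.08, adjusted p = 0.484, limma), and where it lies relative to the deletion is not known here. Cdkn2a, the gene of Ink4a and Arf, had 41.2 and 22 intensity units in Ezh2 KO cells, against 21.6 and 22 in WT cells (log2 change 0.30, adjusted p = 0.755), values near the filter intensity of 19.96 on 3 arrays, so they check nothing either. For the actin control, the ratio of the 3-prime to the 5-prime probe set was 1.26 and 1.21 in Ezh2 KO and 1.24 and 1.21 in WT samples, and for the Gapdh control 0.760 and 0.746 in Ezh2 KO and 0.744 and 0.801 in WT samples. All 11 myeloid markers passed the filter, with summed intensities of 142568 and 128696 in Ezh2 KO and 135134 and 134175 in WT samples. Of the 11, 2 rose, Itgam and Csf1r (log2 changes 0.74 and 0.48), and 2 fell, Cebpa and Ctsg (-0.63 and -0.25). The other 7 did not pass, with log2 changes of 0.17 for Kit, 0.17 for Hoxa9, 0.09 for Mpo, 0.05 for Prtn3, -0.01 for Meis1, -0.03 for Elane and -0.03 for Spi1. Averaging the probe sets ended the call of Csf1r (log2 change 0.33, adjusted p = 0.0618). The call of Ctsg was lost without Ezh2 KO replicate 2 (log2 change -0.19, adjusted p = 0.123), WT replicate 1 (log2 change -0.26, adjusted p = 0.127) or WT replicate 2 (log2 change -0.24, adjusted p = 0.118). Erythroid markers (4 of 6 above the filter) summed to 269.6 and 381 in Ezh2 KO samples, against 284 and 305 in WT samples, and T and NK cell markers (2 of 6) to 282 and 125 in Ezh2 KO samples, against 194 and 133 in WT samples. B cell markers (4 of 6) summed to 908 and 1001 in Ezh2 KO samples, against 905 and 872 in WT samples, and stromal and endothelial markers (7 of 8) to 531 and 606 in Ezh2 KO samples, against 689 and 565 in WT samples. The groups overlapped in each of these sums except that of B cells. The part of these marker differences in the results below was not tested. In bulk samples, fewer cells of a type and less RNA per cell cannot be told apart.

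Of the 76 mitochondrial ribosomal protein genes 20 passed the test as lower in Ezh2 KO cells, 1 passed as higher (limma, adjusted p under 0.05) and 55 did not pass, 49 of these with a negative log2 change. Of all 76 genes, 69 had a negative log2 change, while 49.1% of all 13916 genes tested did, and 54.2% of those of the members' intensity range. The median was -0.21, against 0.007 over all genes tested. The background of calls was 6.01% of all genes lower and 5.55% higher. The falls were between 1.18-fold and 1.41-fold, so that none of them reached 2-fold. Calls are more frequent among bright genes, and so the members were also read against the 6947 genes of the same range of mean intensity, from 329.6 to 7942: of these 9.67% were lower and 8.28% higher, with a median log2 change of -0.02. Among the members the share lower was 26.3%.

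The pattern was seen on every array of each group. Median deviations of the 76 genes from their own mean over the 4 arrays were -0.12 and -0.09 on the Ezh2 KO arrays and 0.12 and 0.07 on the WT arrays, on the log2 scale. Each Ezh2 KO array lay below each WT array in 67 to 69 of the 76 genes. Between arrays of 1 group the median absolute difference was 0.074 in Ezh2 KO and 0.073 in WT samples, against 0.180 to 0.233 between arrays of different groups. In 63 genes both Ezh2 KO arrays lay below both WT arrays (background 26.2% of all genes, and 35.1% of genes in the same intensity range), in 4 they lay above (background 26.2%), and in 9 the groups overlapped.

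**Figure D1:**
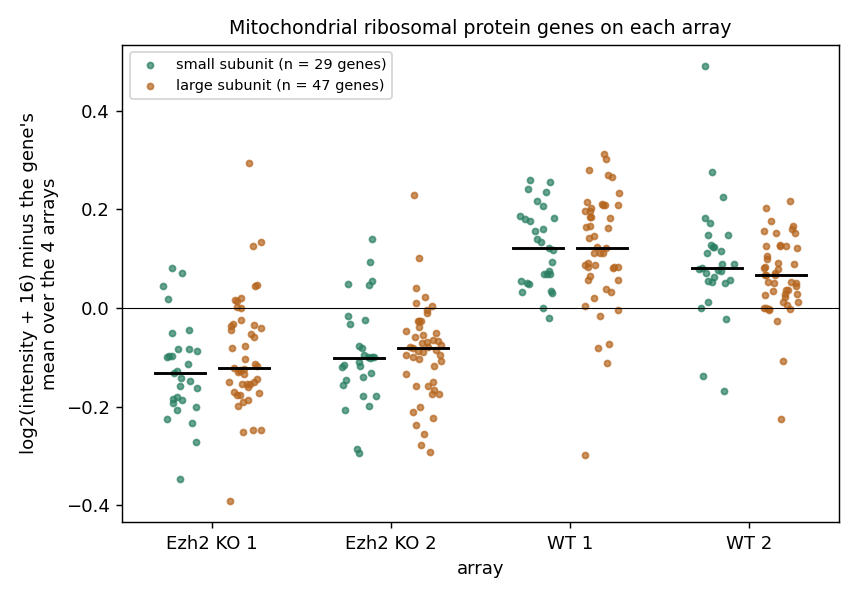
Deviation of each mitochondrial ribosomal protein gene from its mean over the 4 arrays, in log2(intensity + 16), with Ezh2 KO arrays left and WT arrays right; points are genes of the small (29) and large (47) subunit and bars their medians. Medians of the small subunit are -0.13 and -0.10 on the Ezh2 KO arrays and 0.12 and 0.08 on the WT arrays, and those of the large subunit -0.12 and -0.08 on the Ezh2 KO arrays and 0.12 and 0.07 on the WT arrays.

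The number of calls depended on the fit. With a single prior variance for all genes in place of one that follows intensity, limma called 0 of all 13916 genes, and so 0 members. At that setting 15 members had an unadjusted p under 0.05. In the fit reported here 46 members had one, as did 3462 of all 13916 genes. Leaving out WT replicate 1 left 6 lower members, of which 5 were among the 20, while leaving out WT replicate 2, Ezh2 KO replicate 1 or Ezh2 KO replicate 2 left 16, 17 and 25. The share of all genes called lower moved the same way as the members' count in each of these 4 fits. In them the median log2 change of the members stayed between -0.18 and -0.23. Centring each array on its median moved the members' median to -0.31 and that of all genes to -0.09, and quantile normalization gave -0.20 and -0.02, so that the family's median stayed below that of all genes under each scaling.

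**Figure D2:**
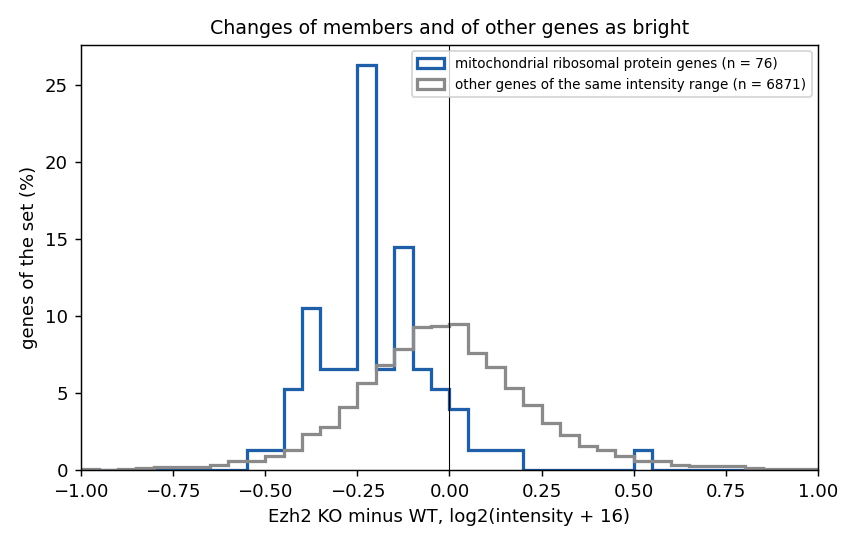
Distribution of the log2 change (Ezh2 KO minus WT) in steps of 0.05, as a percent of each set, for the 76 mitochondrial ribosomal protein genes and for 6871 other genes of the same intensity range; 97 of the other genes lie beyond 1 in size and are not shown. The members' median is -0.21 and that of the other genes -0.02.

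The small subunit holds the decoding site, where messenger RNA is read. Of the 29 genes named for it 8 fell and 0 rose, the median log2 change was -0.22 and 27 of the changes were negative. Among all genes tested 6.01% were lower, 5.55% higher and 49.1% negative. In the members' intensity range 9.67% were lower, 8.28% higher and 54.2% negative. Of the 29, 20 had an unadjusted limma p under 0.05. So did 3462 of all 13916 genes and 2534 of the 6947 genes in the members' intensity range. Mrps34, a protein found only in mitochondrial ribosomes and needed in mice for a stable small subunit, had 2158 and 2186 intensity units in Ezh2 KO cells, against 3025 and 2847 in WT cells (log2 change -0.43, SE 0.07, adjusted p = 0.00321, limma). Mrps18b, 1 of 3 mammalian relatives of a single bacterial protein, had 1125 and 1054 intensity units in Ezh2 KO cells, against 1509 and 1572 in WT cells (log2 change -0.49, SE 0.08, adjusted p = 0.00363). In both genes the WT arrays were high, the Ezh2 KO arrays low and the groups apart. Mrps10, which in bacteria lies in the head of the subunit, had 1324 and 1453 intensity units in Ezh2 KO cells, against 1827 and 1875 in WT cells (log2 change -0.41, adjusted p = 0.00814). Mrps7, whose bacterial counterpart starts the assembly of the head, had 1062 and 1057 intensity units in Ezh2 KO cells, against 1406 and 1382 in WT cells (log2 change -0.39, adjusted p = 0.0101). The 2 arrays of each group lay close together for Mrps7, with means of 1059 ± 3.49 in Ezh2 KO and 1394 ± 16.8 in WT cells (SD, n = 2 arrays each).

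The other small subunit genes that fell were Mrps5, Mrps18a, Mrps2 and Mrps17. Mrps5, which lines the path of the message and bears on the accuracy of decoding, had 630.4 and 631 intensity units in Ezh2 KO cells, against 847 and 783 in WT cells (log2 change -0.36, adjusted p = 0.0392). Mrps18a had 1322 and 1451 intensity units in Ezh2 KO cells, against 1860.2 and 1644 in WT cells (log2 change -0.33, adjusted p = 0.0376). Mrps2 had 1176 and 1249.7 intensity units in Ezh2 KO cells, against 1538 and 1508 in WT cells (log2 change -0.33, adjusted p = 0.0243), and Mrps17 2514 and 2387 intensity units in Ezh2 KO cells, against 2900.1 and 2888 in WT cells (log2 change -0.24, adjusted p = 0.0459). All 4 genes were lower on each Ezh2 KO array than on any WT array. Of the 8 calls 3 held when each array was left out in turn, those of Mrps34, Mrps18b and Mrps10. The calls of Mrps7, Mrps5, Mrps18a, Mrps2 and Mrps17 were lost without WT replicate 1 (log2 changes -0.38, -0.30, -0.25, -0.31 and -0.24, with adjusted p from 0.0614 to 0.200). Those of Mrps5, Mrps18a and Mrps2 were lost without Ezh2 KO replicate 1 (-0.36, -0.27 and -0.28), those of Mrps5 and Mrps17 without Ezh2 KO replicate 2 (-0.36 and -0.20), and those of Mrps5, Mrps2 and Mrps17 without WT replicate 2 (-0.42, -0.34 and -0.24). Averaging all probe sets of each gene ended the calls of Mrps10, Mrps5, Mrps18a, Mrps2 and Mrps17, at log2 changes of -0.24, -0.12, -0.33, -0.25 and -0.24. Mrps18a and Mrps17 have 1 probe set each, so their own values stayed as they were and only the fit over all genes changed.

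Among small subunit genes that did not pass, Mrps27 showed the largest difference, with 259 and 293 intensity units in Ezh2 KO cells, against 342 and 475 in WT cells (log2 change -0.53, adjusted p = 0.0817). Mrps27 belongs to the pentatricopeptide repeat proteins, which bind RNA. Its WT arrays differed from each other about as much as the groups did. Mrps9 had 1144 and 1201 intensity units in Ezh2 KO cells, against 1545 and 1364 in WT cells (log2 change -0.30, adjusted p = 0.051), just over the threshold. Mrps16 (log2 change -0.24, adjusted p = 0.171) and Mrps12, part of the decoding centre (log2 change -0.24, adjusted p = 0.0777), followed. Mrps14 (log2 change -0.21, adjusted p = 0.0614) and Mrps15 (log2 change -0.20, adjusted p = 0.089), named for the brightness of their probe sets, did not pass either. Mrps11 and Mrps18c were the 2 small subunit genes with a positive log2 change. Mrps11 had 829 and 904 intensity units in Ezh2 KO cells, against 807 and 743 in WT cells (log2 change 0.16, adjusted p = 0.354), and Mrps18c had 4629 and 4545 intensity units in Ezh2 KO cells, against 4479 and 3893 in WT cells (log2 change 0.13, adjusted p = 0.317). The Ezh2 KO arrays lay above the WT arrays in both, by less than the test could call.

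**Figure D3:**
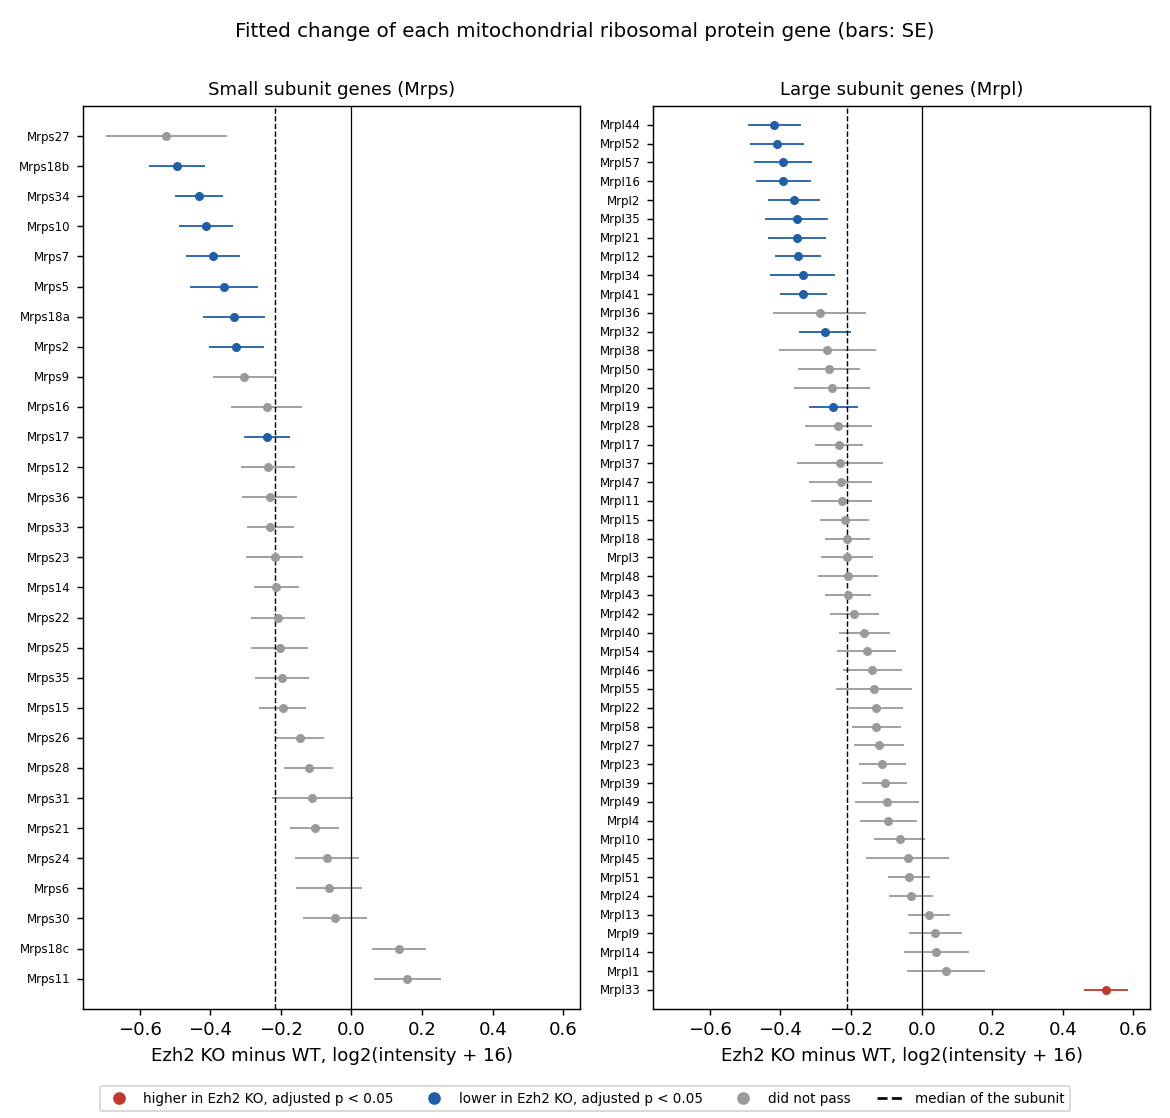
Fitted log2 change (Ezh2 KO minus WT) with its SE for each of the 29 small and 47 large subunit genes, ordered by size, with the subunit's median as a dashed line (-0.22 and -0.21). Of the 76 genes 20 are marked as lower and 1, Mrpl33, as higher in Ezh2 KO cells.

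The large subunit forms the peptide bond and holds the exit tunnel of the new chain. Of the 47 genes named for it 12 fell and 1 rose, and 42 had a negative log2 change, with a median of -0.21. The shares over all genes tested were 6.01% lower, 5.55% higher and 49.1% negative. Those in the members' intensity range were 9.67%, 8.28% and 54.2%. Of the 47, 26 had an unadjusted limma p under 0.05, beside 2534 of the 6947 genes in the members' intensity range. Mrpl44, a protein with a ribonuclease III fold found only in mitochondrial ribosomes, had 2234 and 1989 intensity units in Ezh2 KO cells, against 2834 and 2808 in WT cells (log2 change -0.42, SE 0.08, adjusted p = 0.0066, limma). Mrpl52, also restricted to mitochondria, had 1372 and 1279 intensity units in Ezh2 KO cells, against 1799 and 1729 in WT cells (log2 change -0.41, adjusted p = 0.00788). These 2 genes were also lower with further probe sets, as given below. Mrpl57, a small protein of the mitochondrial ribosome without a bacterial counterpart, had 4109 and 3881 intensity units in Ezh2 KO cells, against 5684 and 4839 in WT cells (log2 change -0.39, adjusted p = 0.0137). Its WT arrays spread more widely than its Ezh2 KO arrays, with means of 3995 ± 161 in Ezh2 KO and 5261 ± 598 in WT cells (SD, n = 2 arrays each).

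Mrpl2, which in bacteria is needed for joining the subunits and for peptide transfer, had 1289 and 1300.1 intensity units in Ezh2 KO cells, against 1703 and 1635 in WT cells (log2 change -0.36, adjusted p = 0.012). Mrpl16, whose bacterial counterpart positions transfer RNA, had 1449 and 1438 intensity units in Ezh2 KO cells, against 1994 and 1808 in WT cells (log2 change -0.39, adjusted p = 0.0105). For both, the 2 Ezh2 KO arrays almost coincided and the WT arrays lay above them. Mrpl12, a protein of the flexible stalk that recruits translation factors and which in humans also binds the mitochondrial RNA polymerase, had 3049 and 2854 intensity units in Ezh2 KO cells, against 3792 and 3744 in WT cells (log2 change -0.35, adjusted p = 0.00786). Mrpl32, which in mice is cut by the m-AAA protease of the inner membrane before it joins the ribosome, had 2649 and 2777 intensity units in Ezh2 KO cells, against 3104 and 3469 in WT cells (log2 change -0.27, adjusted p = 0.0431).

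The remaining 5 that fell were Mrpl35, Mrpl21, Mrpl34, Mrpl41 and Mrpl19, with log2 changes of -0.35, -0.35, -0.34, -0.33 and -0.25. Mrpl35 had 2030.1 and 1938 intensity units in Ezh2 KO cells, against 2773 and 2326 in WT cells. Mrpl21 had 1132 and 1249 intensity units in Ezh2 KO cells, against 1546 and 1502 in WT cells, and Mrpl34 had 1377 and 1545 intensity units in Ezh2 KO cells, against 1982 and 1721 in WT cells. In all 3 the groups stood apart, with WT replicate 1 the highest array. Mrpl41, a protein found only in mitochondrial ribosomes, had 2548 and 2582 intensity units in Ezh2 KO cells, against 3336 and 3146 in WT cells (log2 change -0.33, adjusted p = 0.0105). Of the 12 lower calls, only that of Mrpl44 held when each array was left out in turn. Without WT replicate 1 the calls of Mrpl52, Mrpl57, Mrpl16, Mrpl2, Mrpl35, Mrpl21, Mrpl12, Mrpl34, Mrpl41 and Mrpl19 were lost, at log2 changes of -0.38, -0.28, -0.32, -0.33, -0.23, -0.33, -0.34, -0.24, -0.29 and -0.19 and adjusted p from 0.0543 to 0.233. Without Ezh2 KO replicate 1 those of Mrpl21, Mrpl34, Mrpl32 and Mrpl19 were lost (-0.28, -0.25, -0.24 and -0.22), and without WT replicate 2 those of Mrpl21, Mrpl32 and Mrpl19 (-0.37, -0.19 and -0.31). Averaging all probe sets of each gene ended the calls of Mrpl52, Mrpl57, Mrpl35, Mrpl21, Mrpl34, Mrpl41, Mrpl32 and Mrpl19, at log2 changes of -0.37, -0.25, -0.20, -0.44, -0.02, -0.10, -0.27 and -0.004. Mrpl32 has 1 probe set, so its own values stayed as they were and only the fit over all genes changed.

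Among the large subunit genes that did not pass, the largest differences were those of Mrpl36 (-0.29), Mrpl38 (-0.27), Mrpl50 (-0.26) and Mrpl20 (-0.25), with adjusted p from 0.0881 to 0.269. Mrpl36 had 1315 and 1856 intensity units in Ezh2 KO cells, against 1943 and 1883 in WT cells, so that 1 Ezh2 KO array was near the WT level. Mrpl51 (log2 change -0.04, adjusted p = 0.776) and Mrpl24 (log2 change -0.03, adjusted p = 0.827), named for the brightness of their probe sets, had values close to each other in the 2 groups. Mrpl51 had 7509 and 7664 intensity units in Ezh2 KO cells, against 7892 and 7668 in WT cells. Mrpl13, Mrpl9, Mrpl14 and Mrpl1 had small positive log2 changes, from 0.02 to 0.07. Across the family, 55 genes did not pass, of which 49 had a negative log2 change and 43 had both Ezh2 KO arrays below both WT arrays. Over all genes tested, called or not, 49.1% had a negative log2 change and 26.2% had both Ezh2 KO arrays below both WT arrays. In the members' intensity range these shares were 54.2% and 35.1%. The shares among all genes that did not pass were not taken.

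Mrpl33 was the 1 member that rose. It encodes a small protein of the large subunit, the counterpart of a bacterial protein next to the exit site of transfer RNA, and lies at chr5:31613951-31622644 in GRCm38.p6. Its probe set had 9578 and 9156 intensity units in Ezh2 KO cells, against 6355 and 6681 in WT cells (log2 change 0.52, SE 0.06, adjusted p = 0.000711, limma). The Ezh2 KO arrays were higher than the WT arrays by 1.44-fold, a change that held at each of 14 limma settings other than the single prior variance, with log2 changes from 0.43 to 0.57 and adjusted p of at most 0.0400. A second, dim Mrpl33 probe set had 37.7 and 56.1 intensity units in Ezh2 KO cells, against 36.3 and 15.5 in WT cells and did not pass (log2 change 0.62, adjusted p = 0.459). Within 200000 bases of Mrpl33, the files hold 8 other tested genes. AI839979, an unnamed transcript on the same chromosome, had 1774 and 1921 intensity units in Ezh2 KO cells, against 1069 and 1074 in WT cells and rose (log2 change 0.78, SE 0.08, adjusted p = 0.000253). Gpn1, a small GTPase that brings RNA polymerase II into the nucleus, fell (log2 change -0.29, adjusted p = 0.0282), a call lost on leaving out any of the 4 arrays (adjusted p from 0.0584 to 0.103) and with averaged probe sets (log2 change -0.10, adjusted p = 0.815). Rbks, the ribokinase gene next to Mrpl33, had 677 and 574 intensity units in Ezh2 KO cells, against 542 and 599 in WT cells (log2 change 0.13, adjusted p = 0.576), so that the groups overlapped. Babam2, a subunit of a DNA repair complex, had a log2 change of 0.18 (adjusted p = 0.12).

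The subunits did not separate by their medians, which were -0.22 for the small and -0.21 for the large one, with 27.6% and 25.5% of genes lower. The spread of an array's median between replicates was 0.026 for the small and 0.035 for the large subunit, more than the distance between them. Mrps30 and Mrps18a carry small subunit names although structures place them in the large subunit. Mrps18a fell, as given above, and Mrps30 did not pass (log2 change -0.05, adjusted p = 0.818), and counting both with the large subunit left both medians at -0.22 and -0.21. Mrps36, now known as a part of the oxoglutarate dehydrogenase complex and not of the ribosome, had 1387 and 1419 intensity units in Ezh2 KO cells, against 1727 and 1578 in WT cells (log2 change -0.23, adjusted p = 0.0894).

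Lists of conserved proteins and of proteins listed as specific to mitochondria had medians between -0.22 and -0.20, and Mrpl57, which fell, Mrpl58 and Mrps36 stand in none of them. Of 16 conserved small subunit genes 5 fell and 14 had a negative log2 change, with a median of -0.22. Of 10 small subunit genes listed as specific to mitochondria 2 fell, Mrps34 and Mrps18b, and all 10 had a negative change, with a median of -0.21. Mrps18b could also be listed as conserved, since it is related to a bacterial protein. Of 29 tested conserved large subunit genes 8 fell, 1 rose and 24 had a negative change (median -0.22). Of 18 tested large subunit genes listed as specific to mitochondria, Mrps30 and Mrps18a among them, 4 fell and all 18 had a negative change (median -0.20). Beside these counts, 6.01% of all genes tested were lower and 49.1% negative, and 9.67% and 54.2% of those in the members' intensity range. No test was made between these classes. The 76 genes lie on 17 chromosomes, with between 1 and 11 members each, and the median log2 change was negative on 15 of them. Of 8 members on chromosome 17, which holds Mrps18b, Mrps34, Mrps10, Mrpl2 and Mrps18a, 5 fell, beside 26.3% of all members and 6.01% of all genes. The share of lower calls among all genes of chromosome 17 was not taken, so this count is a description only.

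Many members are read by more than 1 probe set. Of the 76 genes 34 had 1 probe set and 42 had several, up to 8. Tested as single features among 25576 probe sets, 21 of the 151 member probe sets above the filter fell and 1 rose, with a background of 3.89% lower and 4.03% higher. In this limma test the probe sets that stand for the called genes Mrps5, Mrps18a, Mrps17, Mrpl32, Mrpl34 and Mrpl19 did not pass (adjusted p from 0.0567 to 0.0713). The 21 include further probe sets of Mrpl44, Mrpl52, Mrpl41, Mrpl19 and Mrpl11. Probe sets with a mean intensity of 500 or more, the scaled mean of the arrays, numbered 103 and covered 74 genes, and 94 of them had a negative log2 change, with all 21 falls and the rise. Of the 48 dimmer ones above the filter 31 were negative, and the median was -0.08. The limit of 500 was chosen after the values were seen.

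**Figure D4:**
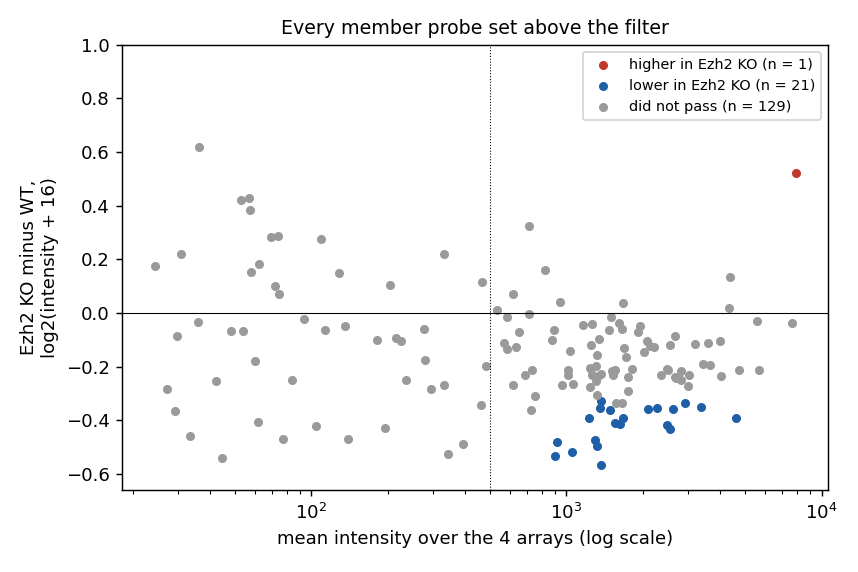
Log2 change (Ezh2 KO minus WT) of the 151 member probe sets above the filter against their mean intensity over the 4 arrays on a log axis, with a dotted line at 500. The 21 lower probe sets and the 1 higher one lie right of that line, and the dimmer probe sets scatter on both sides of 0.

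Among 19 genes with several bright probe sets, all of them were negative in 15, and in 4 their signs differed (Mrpl13, Mrpl15, Mrpl9 and Mrps14). Mrpl44 was the clearest case, with 4 bright probe sets between -0.52 and -0.23. The 3 of these that passed had log2 changes of -0.52, -0.47 and -0.42, and the first had 891 and 834 intensity units in Ezh2 KO cells, against 1324 and 1164 in WT cells (adjusted p = 0.0117). Mrpl52 had 3 that passed, at -0.53, -0.48 and -0.41, and Mrpl41 had 2, at -0.33 and -0.36. In Mrpl19 a second probe set fell, with 2304 and 2259 intensity units in Ezh2 KO cells, against 2878 and 2976 in WT cells (log2 change -0.36, adjusted p = 0.0134). The Mrpl19 probe set that stands for the gene did not pass in this limma test of probe sets (log2 change -0.25, adjusted p = 0.0713). In Mrpl11, a protein of the base of the stalk, 2 probe sets differed: the one that stands for the gene had 1217 and 1300.3 intensity units in Ezh2 KO cells, against 1571 and 1385 in WT cells and did not pass (log2 change -0.23, adjusted p = 0.18), and another, of a type whose probes may match other transcripts, had 963 and 1247 intensity units in Ezh2 KO cells, against 1516 and 1750.4 in WT cells and fell (log2 change -0.57, adjusted p = 0.0254). Mrpl15 spread the most, with 5 bright probe sets between -0.27 and 0.32. Of the 156 probe sets 14 carry the x suffix and 9 the s suffix, which mark probes shared with other transcripts, and their levels are less certain.

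Genes that differed in sign only through dim probe sets were Mrpl17, Mrpl19, Mrpl3, Mrpl34, Mrpl35, Mrpl47, Mrpl48, Mrpl54, Mrpl58, Mrps15, Mrps5 and Mrps9. For these the average over all probe sets of the gene lay nearer to 0 than the bright one. Averaged in this way, 7 members fell, all among the 20, where 3.66% of all genes were lower in place of 6.01%. Of the members 68 had a negative log2 change, with a median of -0.17.

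Other proteins of the mitochondrial ribosome carry symbols that the name rule does not match. Of 5 such genes listed, 4 were tested, all 4 had a negative log2 change and 2 fell. Over all genes tested 49.1% were negative and 6.01% lower, and in the members' intensity range 54.2% and 9.67%. Gadd45gip1, which sits at the exit of the tunnel and helps to insert new chains into the inner membrane, had 536 and 557 intensity units in Ezh2 KO cells, against 1045 and 1101 in WT cells (log2 change -0.95, SE 0.09, adjusted p = 0.0002). A second Gadd45gip1 probe set ran the other way at low signal, at 116 and 114 in Ezh2 KO and 59.0 and 48.7 in WT samples (log2 change 0.91, adjusted p = 0.0731), and the average of the 2 had a log2 change of -0.02. Chchd1 had 2589 and 2773 intensity units in Ezh2 KO cells, against 3359.8 and 3224 in WT cells (log2 change -0.30, adjusted p = 0.022), and lost its call without Ezh2 KO replicate 1 (log2 change -0.25, adjusted p = 0.0727), WT replicate 1 (log2 change -0.27, adjusted p = 0.118) or WT replicate 2 (log2 change -0.32, adjusted p = 0.0529). Ptcd3 did not pass (log2 change -0.24, adjusted p = 0.156), nor did Dap3 (log2 change -0.005, adjusted p = 0.977), a GTP-binding protein also known as a mediator of cell death.

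Genes that help to build or run the mitochondrial ribosome were called lower at about the background share, which was 6.01% of all genes and 9.67% of those in the members' intensity range. Of 26 tested genes of assembly and ribosomal RNA modification 2 fell (7.69%) and 0 rose, with 18 negative log2 changes and a median of -0.12. Those that fell were C1qbp, a matrix protein needed for mitochondrial translation, with 6979 and 6907 intensity units in Ezh2 KO cells, against 9946 and 9242 in WT cells (log2 change -0.46, adjusted p = 0.00147), and Malsu1, which keeps the subunits apart during assembly, with 1051 and 908 intensity units in Ezh2 KO cells, against 1296 and 1301 in WT cells (log2 change -0.40, adjusted p = 0.0202). The call of Malsu1 was lost without Ezh2 KO replicate 2 (log2 change -0.30, adjusted p = 0.0787), WT replicate 1 (log2 change -0.41, adjusted p = 0.0928) or WT replicate 2 (log2 change -0.40, adjusted p = 0.0751), and with averaged probe sets (-0.55, adjusted p = 0.129). Of 12 tested translation factors 1 fell (8.33%) and 10 had a negative change (median -0.10). It was Tufm, the elongation factor that brings transfer RNA to the ribosome, with 629 and 746 intensity units in Ezh2 KO cells, against 926 and 881 in WT cells (log2 change -0.39, adjusted p = 0.0424), and its exchange factor Tsfm lay just over the threshold (log2 change -0.36, adjusted p = 0.0549). The call of Tufm was lost without Ezh2 KO replicate 1 (log2 change -0.27, adjusted p = 0.209), WT replicate 1 (log2 change -0.36, adjusted p = 0.175) or WT replicate 2 (log2 change -0.43, adjusted p = 0.0927). It was also lost without a filter (adjusted p = 0.0707) and with averaged probe sets (log2 change -0.22, adjusted p = 0.607). The difference between these lists and the ribosomal proteins was not tested. The probe sets of C1qbp and Tufm carry the x suffix, so their levels are less certain.

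Of 16 tested genes of mitochondrial DNA maintenance and transcription 3 fell (18.8%), 0 rose and 15 had a negative change, with a median of -0.15. The background was 6.01% lower and 49.1% negative over all genes tested, and 9.67% and 54.2% in the members' intensity range. Slirp and Lrpprc, partners in a complex that stabilises mitochondrial messages, had log2 changes of -0.42 and -0.35 (adjusted p = 0.00431 and 0.0224). Slirp had 1869 and 1945 intensity units in Ezh2 KO cells, against 2611 and 2488 in WT cells. Ssbp1, which coats single strands of mitochondrial DNA, had 5553 and 5399.8 intensity units in Ezh2 KO cells, against 7036 and 6949.9 in WT cells (log2 change -0.35, adjusted p = 0.0046). The transcription factor Tfam and the polymerase Polrmt did not pass (log2 changes -0.14 and -0.12). The call of Lrpprc was lost without Ezh2 KO replicate 2 (log2 change -0.32, adjusted p = 0.0603), WT replicate 1 (log2 change -0.32, adjusted p = 0.112) or WT replicate 2 (log2 change -0.38, adjusted p = 0.0592). That of Ssbp1 was lost with averaged probe sets, at a log2 change of -0.09. ND5, the 1 message of the mitochondrial genome tested, which encodes a subunit of complex I, had 11298 and 11224 intensity units in Ezh2 KO cells, against 8511 and 10120.0 in WT cells (log2 change 0.28, adjusted p = 0.0553). ND5 passed as higher at 7 of 14 limma settings other than the single prior variance, among them quantile normalization (adjusted p = 0.0337), and its log2 change ran between 0.15 without WT replicate 1 and 0.40 without WT replicate 2.

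Of 19 tested genes of mitochondrial mass and protein import 6 fell (31.6%), 0 rose and 18 had a negative change, with a median of -0.20. Among all genes tested 6.01% were lower and 49.1% negative, and in the members' intensity range 9.67% and 54.2%. Tomm40, the pore of the outer membrane, had 1003 and 986 intensity units in Ezh2 KO cells, against 1566 and 1522 in WT cells (log2 change -0.63, SE 0.08, adjusted p = 0.000845). Timm23, the pore of the inner membrane, had 4581 and 4526 intensity units in Ezh2 KO cells, against 6164 and 5719.9 in WT cells (log2 change -0.38, adjusted p = 0.00455), and the chaperonin subunit Hspe1 3472 and 3671 intensity units in Ezh2 KO cells, against 4765 and 4762 in WT cells (log2 change -0.41, adjusted p = 0.00277). Phb2, a scaffold of the inner membrane, fell too (log2 change -0.24, adjusted p = 0.0314), and lost its call without any 1 of the 4 arrays (adjusted p from 0.0913 to 0.116) and with averaged probe sets (adjusted p = 0.101). Not all of this list was lower. The outer membrane channels Vdac1, Vdac2 and Vdac3 had log2 changes of -0.01, -0.02 and -0.01. Vdac1 had 5642 and 5404 intensity units in Ezh2 KO cells, against 5721 and 5393 in WT cells, with overlapping groups. The probe sets of Phb2 and Vdac1 carry the x suffix and that of Hspe1 the s suffix, so their levels are less certain.

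**Figure D5:**
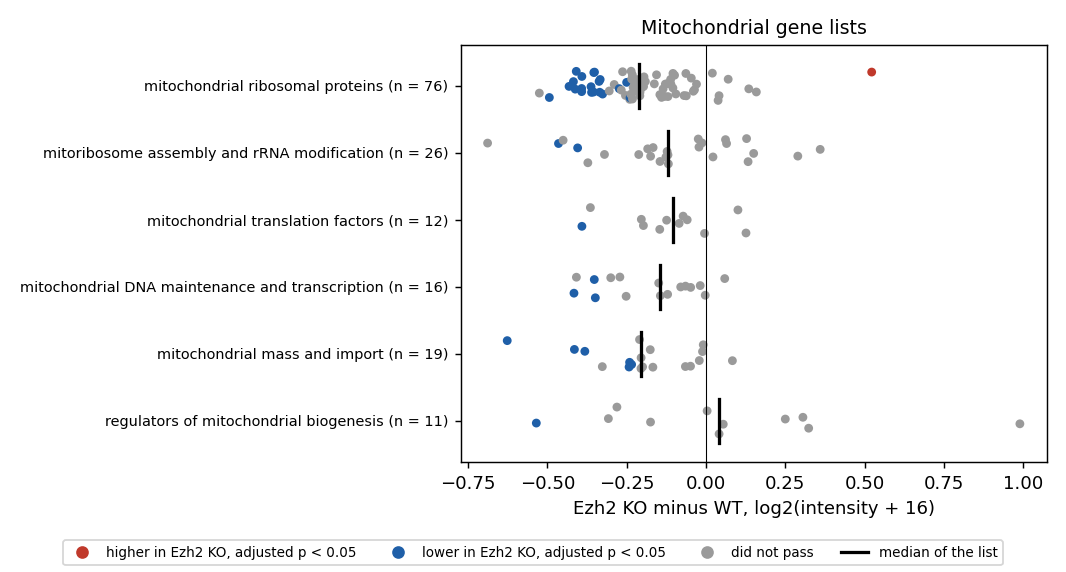
Log2 change (Ezh2 KO minus WT) of the tested genes of 6 lists, 1 point a gene, with the median of each list as a bar; colours mark genes that passed an adjusted p of 0.05. Medians are -0.21 for the ribosomal proteins, -0.12 for assembly, -0.10 for translation factors, -0.15 for mitochondrial DNA and transcription, -0.20 for mass and import and 0.04 for regulators.

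The background share of lower calls was 6.01% of all genes tested and 9.67% of those in the members' intensity range. At a share near that, 1 of 11 tested regulators of mitochondrial biogenesis fell (9.09%) and 0 rose, with a median of 0.04. It was Myc, a transcription factor known to raise nuclear genes of mitochondria, with 2309 and 2214 intensity units in Ezh2 KO cells, against 3265 and 3299.7 in WT cells (log2 change -0.53, adjusted p = 0.000817). Nrf1, Gabpa and Yy1, factors that bind many promoters of such genes, had log2 changes of 0.00, 0.05 and 0.04. Gabpa had 3491 and 3633 intensity units in Ezh2 KO cells, against 3712 and 3167 in WT cells, with overlapping groups. The coactivator gene Ppargc1a was near the filter intensity, with 37.9 and 58 intensity units in Ezh2 KO cells, against 11.3 and 21.1 in WT cells, and did not pass (adjusted p = 0.204).

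Set beside the cytosolic ribosome, whose 43 tested genes had 2 lower and 1 higher and a median log2 change of 0.005, the mitochondrial family had the lower median. The cytosolic genes had a median intensity of 28819 and the members one of 1662. The 79 tested subunits of oxidative phosphorylation, of which 69 had a negative log2 change, had 10 lower, 0 higher and a median of -0.12. The shares lower were 4.65% in the cytosolic set and 12.7% in the oxidative phosphorylation set. The background was 6.01% of all genes and 9.67% of those in the members' intensity range, from 329.6 to 7942. The median intensity of the cytosolic set lies above that range, so that 9.67% is not a matched share for it. The oxidative phosphorylation set had a median intensity of 5640. Both sets were taken by symbol pattern after values were seen, and their differences from the members were not tested.

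Promoters of 67 of the 76 genes could be read in RefSeq sequence of GRCm38.p6, from 250 bases before to 50 after each listed start, and were searched on both strands for letters bound by known regulators of such genes. The letters were CCGGAAGT for ETS factors such as GABPA, CACGTG, the E-box of MYC and its partners, and 1 fixed consensus each for NRF1 and YY1, which stand in capitals in the promoters of Mrpl32 and of Mrpl35 below. The ETS letters were found in 12 members (17.9%, against 8.12% of 11231 tested genes with a promoter and 3.89% of all 32851 promoters). The YY1 letters were found in 5 (7.46%, against 1.58% and 0.633%), the NRF1 letters in 3 (4.48%, against 2.11% and 0.971%) and the E-box in 5 (7.46%, against 11.04% and 7.15%). Mrps27, Mrpl37 and Mrps18c held letters of 2 kinds. Of the members 22 held any of the 4, 5 of which fell, and their median log2 change was -0.21. It was -0.23 in the 45 that held none, of which 13 fell. Of the 12 members with ETS letters 1 fell and 1 rose, and the median was -0.21. Of 5 members with YY1 letters 2 fell, of 3 with NRF1 letters 1, and of 5 with the E-box 1. Without these letters 16 of 62, 17 of 64 and 17 of 62 fell. The medians with YY1, NRF1 and E-box letters were -0.33, -0.10 and -0.25, against -0.21, -0.22 and -0.21 without them. A match is a description of letters and not of a bound site.

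The following promoters of called members are shown because they hold these letters, which stand in capitals; each runs 5-prime to 3-prime along its gene. The pair Mrpl33 and Mrpl52 carry the same ETS letters at the start of transcription and moved in opposite directions, with log2 changes of 0.52 and -0.41. Those of Mrpl33 span the start, from base -3 to base 5, and those of Mrpl52, on the other strand, lie at bases 2 to 9, counting the start as base 1.
Mrpl33, chr5:31613701-31614000, plus strand: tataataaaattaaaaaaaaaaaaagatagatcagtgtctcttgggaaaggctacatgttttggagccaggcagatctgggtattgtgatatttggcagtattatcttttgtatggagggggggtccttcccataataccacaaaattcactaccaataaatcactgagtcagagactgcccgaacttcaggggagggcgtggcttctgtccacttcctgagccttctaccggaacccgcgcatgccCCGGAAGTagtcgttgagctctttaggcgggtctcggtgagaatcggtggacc
Mrpl52, chr14:54426659-54426958, plus strand: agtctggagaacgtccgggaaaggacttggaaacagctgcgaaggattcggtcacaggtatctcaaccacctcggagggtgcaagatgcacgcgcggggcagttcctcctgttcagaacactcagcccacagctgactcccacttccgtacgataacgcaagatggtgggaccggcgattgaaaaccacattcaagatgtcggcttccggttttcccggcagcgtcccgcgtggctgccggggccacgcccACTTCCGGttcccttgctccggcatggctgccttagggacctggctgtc
Mrps18a and Mrpl35 hold the YY1 letters at bases 12 to 22 and 24 to 34, and fell with log2 changes of -0.33 and -0.35.
Mrps18a, chr17:46110754-46111053, plus strand: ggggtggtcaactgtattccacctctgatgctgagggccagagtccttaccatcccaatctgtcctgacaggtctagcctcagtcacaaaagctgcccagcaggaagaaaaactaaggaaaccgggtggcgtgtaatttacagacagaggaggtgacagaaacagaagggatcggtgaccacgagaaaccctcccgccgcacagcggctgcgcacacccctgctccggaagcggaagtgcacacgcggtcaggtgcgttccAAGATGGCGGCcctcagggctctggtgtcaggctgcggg
Mrpl35, chr6:71823735-71824034, minus strand: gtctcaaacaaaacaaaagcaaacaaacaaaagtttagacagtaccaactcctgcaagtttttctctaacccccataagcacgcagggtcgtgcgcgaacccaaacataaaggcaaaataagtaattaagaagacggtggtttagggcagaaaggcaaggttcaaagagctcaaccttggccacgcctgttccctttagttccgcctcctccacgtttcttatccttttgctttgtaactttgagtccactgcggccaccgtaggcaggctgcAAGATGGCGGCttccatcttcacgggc
Mrpl32 holds the NRF1 letters at bases -87 to -78, and Mrpl2 an E-box at bases -131 to -126 of 1 of its 3 listed starts. These genes fell by 0.27 and 0.36 on the log2 scale.
Mrpl32, chr13:14612988-14613287, minus strand: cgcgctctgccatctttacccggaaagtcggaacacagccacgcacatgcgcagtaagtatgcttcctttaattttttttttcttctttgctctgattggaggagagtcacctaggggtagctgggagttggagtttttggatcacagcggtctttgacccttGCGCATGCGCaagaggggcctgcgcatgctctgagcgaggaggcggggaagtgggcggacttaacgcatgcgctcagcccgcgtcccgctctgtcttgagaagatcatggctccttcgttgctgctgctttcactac
Mrpl2, chr17:46645971-46646270, plus strand: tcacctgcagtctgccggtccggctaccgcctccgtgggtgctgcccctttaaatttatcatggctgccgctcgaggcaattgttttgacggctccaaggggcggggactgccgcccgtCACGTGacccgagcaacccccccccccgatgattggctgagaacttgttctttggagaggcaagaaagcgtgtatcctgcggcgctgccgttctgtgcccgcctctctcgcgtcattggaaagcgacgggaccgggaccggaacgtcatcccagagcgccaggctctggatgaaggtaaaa

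Some of these genes stand head to head with a neighbour, and the share of all genes that do so was not taken. For 25 members another gene starts on the opposite strand within 1000 bases upstream, and all 25 partners were tested. The partners had a median log2 change of -0.06, with 16 negative, against -0.23 for the 25 members themselves. At a share near the background of 6.01% of all genes lower, and 9.67% in the members' intensity range, 2 of the 25 partners fell and 0 rose. They were Ptcd2, a mitochondrial protein with the same repeats as Mrps27 and starting 108 bases from it, with 963 and 1024 intensity units in Ezh2 KO cells, against 1442 and 1198 in WT cells (log2 change -0.40, adjusted p = 0.0319), and Ndufb5, a subunit of complex I that shares its start region with Mrpl47 (log2 change -0.24, adjusted p = 0.039). The call of Ptcd2 was lost without WT replicate 1 (log2 change -0.27, adjusted p = 0.179), and that of Ndufb5 without Ezh2 KO replicate 1 (log2 change -0.22, adjusted p = 0.0898), WT replicate 1 (log2 change -0.19, adjusted p = 0.189) or WT replicate 2 (log2 change -0.29, adjusted p = 0.0528). Ska3, a kinetochore gene that starts 76 bases from Mrpl57, had 539 and 568 intensity units in Ezh2 KO cells, against 536 and 479 in WT cells (log2 change 0.12, adjusted p = 0.569). Ighmbp2, a helicase gene 32 bases from Mrpl21, had 111 and 102 intensity units in Ezh2 KO cells, against 88.5 and 111 in WT cells (log2 change 0.09, adjusted p = 0.88). In both pairs the member fell and the partner's values did not pass. Mrps11 and Mrpl46 are each other's partners, 42 bases apart, with log2 changes of 0.16 and -0.14, neither of which passed.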

How the data were processed

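RNA from 2 Ezh2 KO and 2 WT samples was measured on 1-colour Affymetrix arrays, and groups and replicate numbers come from the sample titles. The deposited values are intensities on a linear scale, which the submitters' processing notes credit to Affymetrix Expression Console; the version and summary method are not given in the sources used here. By the values, each deposited array has a mean of 500 after trimming 2% at each end, which removes any difference in total mRNA per cell. Of 45101 probe sets, 64 controls were left out, 34945 others had 1 symbol and 932 several, 4 of these naming a member.

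R 4.3.3 was used with limma 3.58.1 (lmFit, then eBayes) on log2(intensity + 16); the prior variance was allowed to trend with intensity, which gave 9.56 degrees of freedom, 2 of them from the arrays. Folds are on that scale and understate changes of dim genes. The brightest probe set stood for its gene, those over the 30th percentile (19.96) were tested, and p-values were adjusted by Benjamini-Hochberg over all 13916 genes at a threshold of 0.05. Lists were described by counts and medians, with no set test. The named genes were all called members, per subunit the 4 largest changes that did not pass and the 3 brightest, members with probe sets of both signs, Mrps30, Mrps18a, Mrps36, Ezh2, Cdkn2a, and up to 4 called or 2 other genes of each list. Other genes named for comparison were chosen after their values were seen. The members and lists were chosen with earlier results of these data known. The fit was tested on simulated data. Alternatives were quantile normalization, median centring, other filters, pseudocounts of 1 and 64, averaged probe sets, other priors, a replicate block, an adjusted p of 0.10 and leaving out each array. Figures were drawn in Python 3.11.15 (matplotlib 3.10.9). Detection calls, probe positions and protein sequences were not used here.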

Additional observations from a re-analysis of the deposited data

How the results depend on the processing

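Fits without 1 array gave 6 to 25 lower members, 1 higher member each, 8 to 28 called member probe sets, and medians of -0.24 to -0.20 for the small and -0.22 to -0.17 for the large subunit. The 20 lower members became 13 without a filter, 7 with averaged probe sets, 32 at an adjusted p of 0.10 (34 called probe sets in place of 22) and 40 with the replicate number as a block (38 probe sets), whose numbers the labels tie to no shared batch and whose deviations correlated at 0.041 over genes. The share of all genes called lower moved too, from 6.01% to 3.29%, 3.66%, 9.01% and 10.3% in this order. With a single prior variance limma called 0 of all 13916 genes, and so 0 lower members, 0 higher members and 0 member probe sets. At that setting 15 members had an unadjusted p under 0.05. Median centring moved the medians to -0.31 for each subunit, and averaging moved that of the large subunit to -0.14. The causes were not tested. Of the 20 lower members 3 passed at all 14 limma settings other than the single prior (Mrps18b, Mrps34 and Mrpl44) and 5 at all but 1. Signs reversed, none past the threshold, with quantile normalization for Mrpl24 (0.000697), with median centring for Mrpl13 and Mrpl9 (-0.077 and -0.059), with averaged probe sets for Mrpl54, Mrpl58 and Mrpl9 (0.11, 0.046 and -0.023), and on leaving out 1 array for Mrpl24 (-0.066 to 0.0065), Mrpl9 (-0.015 to 0.092) and Mrps30 (-0.14 to 0.047). With 2 arrays a group, the smallest change called among the members was a fall by 0.24 on the log2 scale.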
